A study of Canis lupus familiaris with 5 samples.

Results

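The dog leukocyte antigen (DLA) region, the major histocompatibility complex (MHC) of the dog, lies at the start of chromosome 12. It is described here through 159 gene models, taken from position alone: all models of chromosome 12 whose last exon ends before position 3000000 of the dog genome build CanFam3.1. They are 159 of the 930 models of that chromosome and of the 32220 in the count table. RNA came from cells of 1 adult dog, named K9, at 3 stages of reprogramming. The fibroblast group was 1 library of skin fibroblasts at passage 1. The iNSLC group was 1 library at passage 2 of induced neural stem cell-like cells, which grew out as primary colonies after episomal vectors with reprogramming factors had been introduced into the fibroblasts. The iPSC group was 3 libraries of induced pluripotent stem cells, clone 1 at passage 9 and clones 2 and 3 at passage 8. All 5 libraries share the same donor, and the colonies and clones share the vector set named EP-B, which carries human reprogramming factors. The colonies grew in NSM, a medium made to bring pluripotent cells into a naive-like state, and the clones in ESM, an embryonic stem cell medium. Medium, passage and any vector still held by the colonies go with the group and cannot be told apart from stage. In such bulk samples, fewer cells of a type and less RNA per cell cannot be told apart either.

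The MHC is a dense cluster of genes best known for antigen presentation. Class I molecules show peptides from inside the cell to cytotoxic T cells, after the immunoproteasome has cut them and the TAP transporter has carried them into the endoplasmic reticulum. Class II molecules show peptides from outside the cell to helper T cells and belong mainly to dendritic cells, macrophages and B cells. The stretch between them holds complement and cytokine genes beside many genes that have no part in immunity and are used by most cells. Class I levels are in general low in pluripotent cells and can be raised by interferons.

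The files give Ensembl gene IDs and no symbols. The only table of dog gene names used here belongs to another assembly (UU_Cfam_GSD_1.0), holds 43286 rows and an Ensembl ID in 0 of them, and so matched 0 of the 159 models. Its own order of neighbours shows what kinds of genes lie in such a region, among them the class I genes DLA88 and DLA-64, the cytokine genes LTA, TNF and LTB, the complement genes C2 and CFB, the class II genes DLA-DRA, DLA-DQA1 and DLA-DQB1, and a group made of TAP2, PSMB8, TAP1 and PSMB9 between DLA-DOB and DLA-DMB. From GNL1 to BAK1 that table lists 128 protein-coding genes, 20 long non-coding RNAs, 16 pseudogenes and 1 transcribed pseudogene. None of these names was given to a model of the files, the label of the region rests on position alone, no protein or promoter sequence could be assigned, and the cell labels could not be checked against marker genes. The models are therefore called by their number in order of start, from 1 to 159, with their CanFam3.1 position. Class I and class II genes have close copies and pseudogenes, so reads of some models may be split between copies.

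The region was dense and its models were used more often than those of the rest of the chromosome. The first model starts at 97371 and the last ends at 2961253, which gives 55.5 models per Mb, against 11.1 per Mb in the remainder of chromosome 12. Models were short in span, with a median of 4024 bp against 11384 bp in the remainder of the chromosome, and had a median of 6 separate exon blocks against 3. The strands were nearly balanced, with 78 models on the plus and 81 on the minus strand. Exons of 25 models (15.7%) overlapped those of another model, against 7.41% of all models, and 8 of the 25 overlapped on the same strand. A share of 67.3% of the models in the fibroblast library, 64.8% in the iNSLC library and 76.1% to 78.6% in the iPSC libraries had at least 3 counts. In the remainder of chromosome 12 these shares were 45.5%, 46.8% and 51.0% to 53.6%. At the other end, 12 models had 0 counts in every library and 25 stayed under 3 counts in every library. Of all 32220 models, 8257 had 0 counts in every library and 11481 stayed under 3.

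Libraries held 33280017 counts (fibroblast), 11699186 (iNSLC) and 20021139 to 34317091 (iPSC), so that a floor of 3 counts lay between 0.0874 and 0.256 CPM, where CPM are counts scaled to a library total of 1000000. Lone libraries have no replicate error. Intervals and floors cover counting error only. Intervals of ratios cover that of the lower count and hold the other count fixed, so they are narrower than the full counting error.

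The 159 models together took a larger share of the counts with each stage. Their share was 0.518% of all counts in the fibroblast library (Clopper-Pearson 95% interval 0.516 to 0.521%), 0.709% in the iNSLC library (0.704 to 0.714%), and 0.951%, 1.05% and 1.11% in iPSC 1, 2 and 3, a mean of 1.04 ± 0.0793% (SD, n = 3). The difference was smaller after scaling with TMM (trimmed mean of M values), which corrects for the few very abundant genes of a library. On that scale the models summed to 6736 CPM in fibroblasts, 7238 CPM in iNSLCs, and 8696, 9316 and 10280 CPM in the iPSC clones. All CPM values given from here on are TMM-scaled. A few models carried much of these sums. The 5 most abundant models of each library held 37.2% of the region's counts in fibroblasts, 39.6% in iNSLCs and 42.8% to 43.3% in iPSCs.

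Levels of different models were compared only per kb of exon. Model 142 (2712958 to 2718657, 547 bp of exon) had the highest mean over the 3 groups, with 934 CPM per kb in fibroblasts, 1473 in iNSLCs and 1322 ± 379 in iPSCs (SD, n = 3). Model 19 (512945 to 516144) followed with 624, 637 and 1000 ± 122 CPM per kb in the same order of stages. It was the most abundant model by counts in all 5 libraries. Neither passed the test in a comparison of stages. The next 8 were models 71, 36, 61, 39, 20, 137, 21 and 145, with means from 81.0 to 194 CPM per kb, and of these models 71, 36, 39 and 21 were called between iPSCs and fibroblasts. The place of model 36 rested on iPSC 2. Without that clone, a setting chosen after seeing the data, its mean was 79.8 CPM per kb in place of 161, and it was the last of the 10. Models 61 (1150947 to 1208603) and 137 (2663839 to 2667801) share exon sequence with neighbours and can share reads. The median over all 159 models was 2.08 CPM per kb in fibroblasts, 2.31 in iNSLCs and 2.14 to 4.47 in iPSCs, while that of all 32220 models lay between 0.0731 and 0.230.

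Activity was uneven along the region. In 6 windows of 500 kb by start, the first 3 and the last held nearly all reads. The window from 0.5 to 1.0 Mb had 23 models and summed to 1922 CPM in fibroblasts, 2068 CPM in iNSLCs and 2663 to 3224 CPM in iPSCs. The window from 1.0 to 1.5 Mb had the most models, 54, and 17 of the 25 overlapping ones. Between 1.5 and 2.0 Mb, 18 models summed to 136 CPM in fibroblasts, 141 CPM in iNSLCs and 234 to 266 CPM in iPSCs. Between 2.0 and 2.5 Mb, 14 models summed to 117 CPM in fibroblasts and 63.5 CPM in iNSLCs. In that window the clones were far apart, with 16.1, 135 and 20.2 CPM in iPSC 1, 2 and 3. From 2.5 to 3.0 Mb, 32 models summed to 1922 CPM in fibroblasts, 2001 CPM in iNSLCs and 2055 to 2744 CPM in iPSCs.

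**Figure D1:**
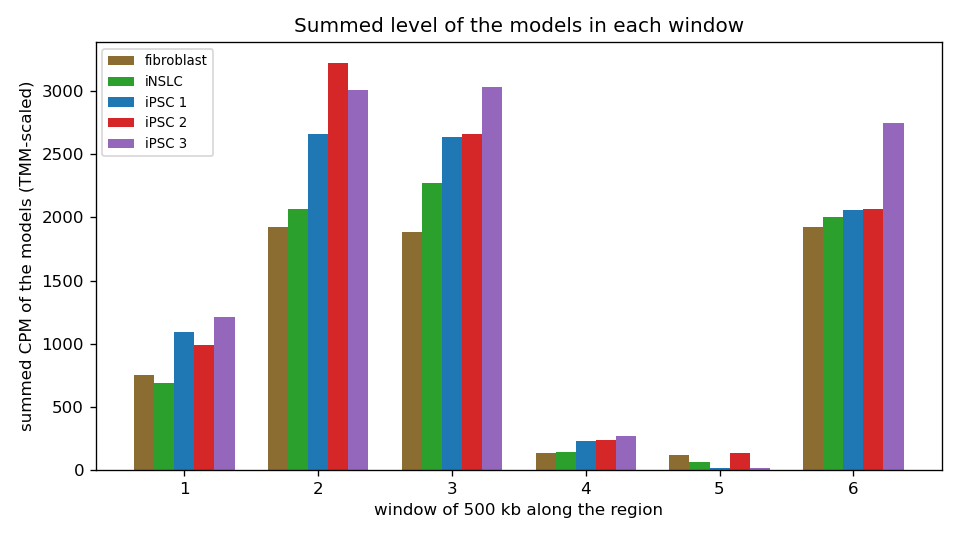
Summed TMM-scaled CPM of the models in each of 6 windows of 500 kb, counted from the start of chromosome 12, with 1 bar per library (fibroblast, iNSLC and 3 iPSC clones). The fifth window is low in every library, at 117 CPM in fibroblasts, 63.5 CPM in iNSLCs and 16.1, 135 and 20.2 CPM in the clones, and iPSC 2 stands above the other clones there.

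The first comparison asked how the levels of the region differed between iPSCs and the fibroblasts they came from. More models rose than fell: 19 were higher and 8 lower in iPSCs, by edgeR's quasi-likelihood test at an adjusted p under 0.05 over all genes. Of the 159 models 119 passed the filter on low counts and were tested. The share called was 22.7% in the region, against 24.5% in the remainder of chromosome 12 and 28.0% of all 17479 genes tested. By direction, 16.0% of the region's tested models were higher, where the background was 13.7%, and 6.72% were lower, where it was 14.3%. The median log2 fold change was 0.51 in the region and 0.27 over all genes, or 0.51 and 0.24 when genes with 0 counts in a whole group were set to their bound. All 3 clones lay above the fibroblast library for 67 of the 119 models (56.3%, background 44.3%) and below it for 23 (19.3%, background 35.9%). The number called was 22 without iPSC 1 (background 22.8%), 42 without iPSC 2 (background 40.3%) and 16 without iPSC 3 (background 16.6%), and with library size as the only scaling it was 41 (background 32.4%), of which 87.8% were higher instead of 70.4%.

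The model with the widest fold was number 36 (ENSCAFG00000000485, 861374 to 866099, 5 exon blocks). It had 134, 928 and 148 CPM in iPSC 1, 2 and 3, against 2 counts (0.0781 CPM) in fibroblasts, and the iNSLC library had 118 CPM. Every clone and the colonies thus had counts of it at over 100 CPM, and iPSC 2 stood several times above the other clones. Reads from vectors were not separated, and whether any were counted on model 36 was not tested. The paper reports, from genomic PCR, that episomal vectors had been lost from all its dog iPSC clones after several passages. The main text of the paper gives no such result for the dog colonies. The iPSC mean was 5166 times the fibroblast value (counting interval 1430 to 42659), a log2 fold change of 12.25 ± 2.34 (standard error, edgeR adjusted p = 0.0146). Without iPSC 2 the ratio was 1806 and the log2 fold change 10.78. The call was lost without iPSC 3 and with limma-voom. Against iNSLCs the log2 fold change was 1.77 and missed the threshold (edgeR adjusted p = 0.370).

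Model 25 (653779 to 672220, 18 exon blocks) had 181, 166 and 182 CPM in iPSC 1, 2 and 3, against 26.3 CPM in fibroblasts. The clones lay close together, far above fibroblasts, and the log2 fold change reached 2.75 ± 0.346 (standard error, edgeR adjusted p = 0.00433). The iNSLC library had 121 CPM. Model 43 (1028703 to 1044492) had 427, 447 and 561 CPM in the clones and 102 CPM in fibroblasts, a log2 fold change of 2.23 (edgeR adjusted p = 0.00954), with 214 CPM in iNSLCs. It holds 3 smaller models within its span and shares exon sequence with a neighbour. For both models the iNSLC level lay between the fibroblast library and the lowest clone.

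Several called models lay between 1.1 and 1.4 Mb, within the window that held the most models. From 1.0 to 1.5 Mb, 9 of 45 tested models were higher and 3 lower. Over all genes tested, 13.7% were higher and 14.3% lower. Model 72 (ENSCAFG00000000626, 1221802 to 1243431, 25 exon blocks) had 21.8, 23.2 and 39.5 CPM in the clones, against 2.97 CPM in fibroblasts, with a log2 fold change of 3.25 ± 0.608 (standard error, edgeR adjusted p = 0.0138). Its iNSLC level was 6.19 CPM. Model 87 (1356823 to 1358202), a model of 1 exon, had 39.9, 46.8 and 63.1 CPM in the clones and 8.78 CPM in fibroblasts, a log2 fold change of 2.51 (edgeR adjusted p = 0.0144). Model 70 (1206392 to 1208347) had 45.8, 52.2 and 81.7 CPM in the clones and 11.1 CPM in fibroblasts. It lies inside model 61 on the other strand, overlaps its exons and can share its reads. Model 62 (1155288 to 1156320), also within that span, had 8.32, 10.7 and 15.3 CPM in the clones and 1.68 CPM in fibroblasts, and its call was lost without iPSC 3. In each of these models all clones exceeded both lone libraries.

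Further higher models lay between 1.5 and 2.0 Mb and near both ends of the region. In that window 4 of 11 tested models (numbers 98, 99, 102 and 103) were higher and 0 lower. Over all genes tested, 13.7% were higher and 14.3% lower. The window's median log2 fold change of 2.88 was the largest of the 6, and 5 of its models reached 10 CPM in each library. Calls of models 98, 99 and 102 were lost without iPSC 3. Near the start of the region, model 14 (441898 to 456152) had 26.7, 25.8 and 35.2 CPM in the clones and 6.64 CPM in fibroblasts. Near the other end, model 154 (2834776 to 2861101) had 41.3, 52.5 and 38.3 CPM in the clones and 7.65 CPM in fibroblasts, with a log2 fold change of 2.52 (edgeR adjusted p = 0.0115). Model 151 (2813626 to 2928614), which spans model 154 and 5 others, had 144, 131 and 189 CPM in the clones and 45.4 CPM in fibroblasts, a log2 fold change of 1.77 (edgeR adjusted p = 0.0207). The remaining 9 higher models, with numbers 98, 99, 102 and 103 among them, were outside the 10 of widest fold at 10 CPM or more. They had log2 fold changes from 1.31 upward. Among them was model 54 (1104262 to 1108358), with 4.45, 7.43 and 6.08 CPM in the clones and 0 counts in both the fibroblast and the iNSLC library. At a floor of 3 counts in the fibroblast library it was at least 51.1-fold higher in iPSCs, although its level stayed under 10 CPM.

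Of the 8 models that fell, 5 start between 0.5 and 1.0 Mb, where 15 models were tested. The other 3 start between 1.0 and 1.5 Mb, where 45 were tested. Over all genes tested, 14.3% were lower. Model 21 (ENSCAFG00000000447, 529738 to 530220, 1 exon) had 1.30, 4.76 and 2.92 CPM in the clones, against 98.2 CPM in fibroblasts, with a log2 fold change of -5.04 ± 0.631 (standard error, edgeR adjusted p = 0.00427). The iNSLC library was in between with 24.4 CPM. Model 23 (566705 to 573172, 118 bp of exon) had 0 counts in all clones and 59 counts (2.30 CPM) in fibroblasts, and was at least 22.5-fold lower in iPSCs at a floor of 3 counts per clone. Its iNSLC library had 6 counts.

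Models 38, 39 and 41 behaved alike, and all lie between 0.89 and 0.99 Mb. Model 38 (ENSCAFG00000000487, 892228 to 895691, 9 exon blocks) had 9.86, 19.4 and 13.2 CPM in iPSC 1, 2 and 3, against 95.7 CPM in fibroblasts, a log2 fold change of -2.76 ± 0.412 (standard error, edgeR adjusted p = 0.00706). Model 39 (933312 to 936671, 8 exon blocks) had 26.6, 55.9 and 41.2 CPM in the clones and 269 CPM in fibroblasts, a log2 fold change of -2.71 (edgeR adjusted p = 0.00736). Model 41 (983573 to 986969, 8 exon blocks) had 16.0, 34.7 and 26.0 CPM in the clones and 107 CPM in fibroblasts, a log2 fold change of -2.06 (edgeR adjusted p = 0.0199). In all of them the clones kept the order iPSC 2, iPSC 3, iPSC 1, and no clone reached the fibroblast level. The iNSLC library lay near the fibroblast library, with 103, 266 and 114 CPM in models 38, 39 and 41. The calls of these models and of model 23 were lost without iPSC 3.

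The other models that fell lie between 1.2 and 1.51 Mb. Model 71 (1209773 to 1215229) had 162, 135 and 192 CPM in the clones and 409 CPM in fibroblasts, a log2 fold change of -1.32 ± 0.308 (standard error, edgeR adjusted p = 0.0260). Its iNSLC level of 110 CPM was below every clone. Model 94 (1453419 to 1501533) had 3.28, 5.43 and 3.35 CPM in the clones, against 17.1 CPM in fibroblasts, and its exons overlap those of neighbours. Both calls were lost without iPSC 1 and with library size as the only scaling, and that of model 94 also without iPSC 3 and with a filter of at least 10 CPM in a library. Model 88, the remaining one, was also low against iNSLCs and is given with that comparison.

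**Figure D2:**
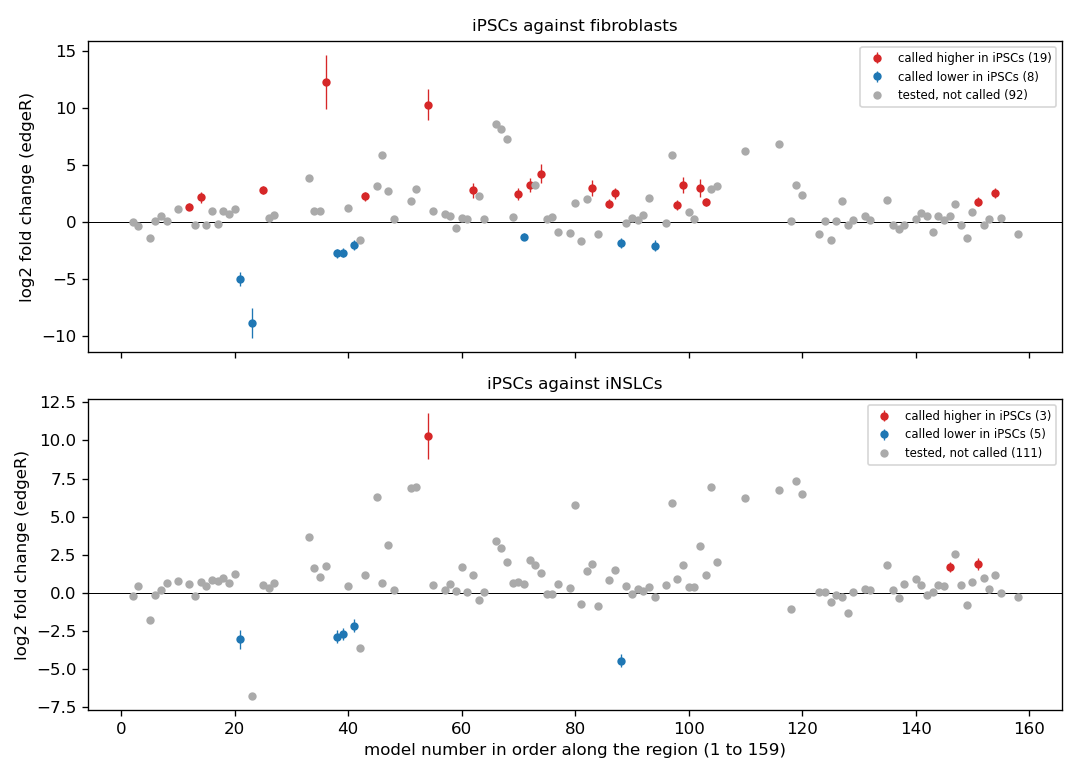
Log2 fold change of each of the 119 tested models, in order along the region, for iPSCs against fibroblasts (top) and iPSCs against iNSLCs (bottom), with standard errors for called models. For models with 0 counts in a whole group, such as 23 and 54, the plotted value depends on the prior count. Against fibroblasts 19 models are called higher (red) and 8 lower (blue), and against iNSLCs 3 are higher and 5 lower.

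Next, iPSCs were compared with the iNSLC stage. Few models differed: 3 were higher and 5 lower in iPSCs, together 8 of 119 or 6.72%, where 11.2% of all genes tested were called. By direction, 2.52% of the region's models were higher (background 3.51%) and 4.20% lower (background 7.71%). The median log2 fold change was 0.55 in the region and 0.20 over all genes, or 0.52 and 0.11 when genes with 0 counts in a whole group were set to their bound. All clones lay above the iNSLC library for 69 models (58.0%, background 41.8%) and below it for 15 (12.6%, background 34.3%). Both comparisons use the same clones, so their calls are not independent. Without iPSC 2, 20 of 115 tested models were called (24.3% of all genes tested). Without iPSC 3 edgeR called 0 of the models, with 22 at an unadjusted p under 0.05, and 0 genes in the whole table (background 0.00%). With DESeq2 on all libraries, 15 of 119 models were called (19.9% of all genes).

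All 5 lower models, numbers 21, 38, 39, 41 and 88, were also called lower against fibroblasts. How often this held over all genes was not computed. Model 88 (1363672 to 1406213, 38 exon blocks) had 12.4, 7.83 and 16.8 CPM in iPSC 1, 2 and 3, against 271 CPM in iNSLCs, a log2 fold change of -4.45 ± 0.427 (standard error, edgeR adjusted p = 0.00467). It had 45.6 CPM in fibroblasts, from which iPSCs also differed, with a log2 fold change of -1.88 (edgeR adjusted p = 0.0249). The second call did not pass when libraries were scaled by size alone. This model was thus highest in the iNSLC library and lowest in the clones. Models 38, 39 and 41 had log2 fold changes of -2.87, -2.69 and -2.16 against iNSLCs (edgeR adjusted p = 0.0152, 0.0175 and 0.0345), and model 21 had -3.04 (edgeR adjusted p = 0.0358).

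Of the higher models, number 151 had a log2 fold change of 1.87 over the 42.2 CPM of iNSLCs (edgeR adjusted p = 0.0356). Model 146 (2731299 to 2738786) had 88.0, 93.1 and 107 CPM in the clones and 29.5 CPM in iNSLCs, a log2 fold change of 1.70 ± 0.347 (standard error, edgeR adjusted p = 0.0349). Fibroblasts had 65.9 CPM of it, so that the iNSLC library was the lowest of the 5, and its exons overlap those of a neighbour. Both calls were lost without iPSC 1, and that of model 146 with limma-voom. Model 54 was the remaining one and was at least 22.9-fold higher in iPSCs at a floor of 3 counts in the iNSLC library.

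The comparison of iNSLCs with fibroblasts had a single library on each side, so it was made without a test or a replicate check. Among 69 models that reached 10 CPM in the higher library, 3 were 4-fold or more higher in iNSLCs (4.35%, background 7.95%) and 1 was as far lower (1.45%, background 5.69%). Model 36 had 118 CPM in iNSLCs and only 2 counts in fibroblasts, or 1515 times the fibroblast value (counting interval 419 to 12508). Vector reads were not separated in these counts. For model 88 the values were 271 CPM (iNSLC) and 45.6 CPM (fibroblast), a ratio of 5.93 (5.60 to 6.29). For model 25 they were 121 CPM (iNSLC) and 26.3 CPM (fibroblast), a ratio of 4.59 (4.26 to 4.96). Model 21 was the lower one, with 24.4 CPM (iNSLC) and 98.2 CPM (fibroblast), a ratio of 0.249 (0.221 to 0.280), and fell short of 4-fold with every other scaling. The median log2 ratio of the 69 models was 0.03, against -0.21 over the 10237 genes at this level. These 4 models were all among the 27 called between iPSCs and fibroblasts. Both comparisons use the same fibroblast library, so they are not independent, and the share of such overlap over all genes was not computed.

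**Figure D3:**
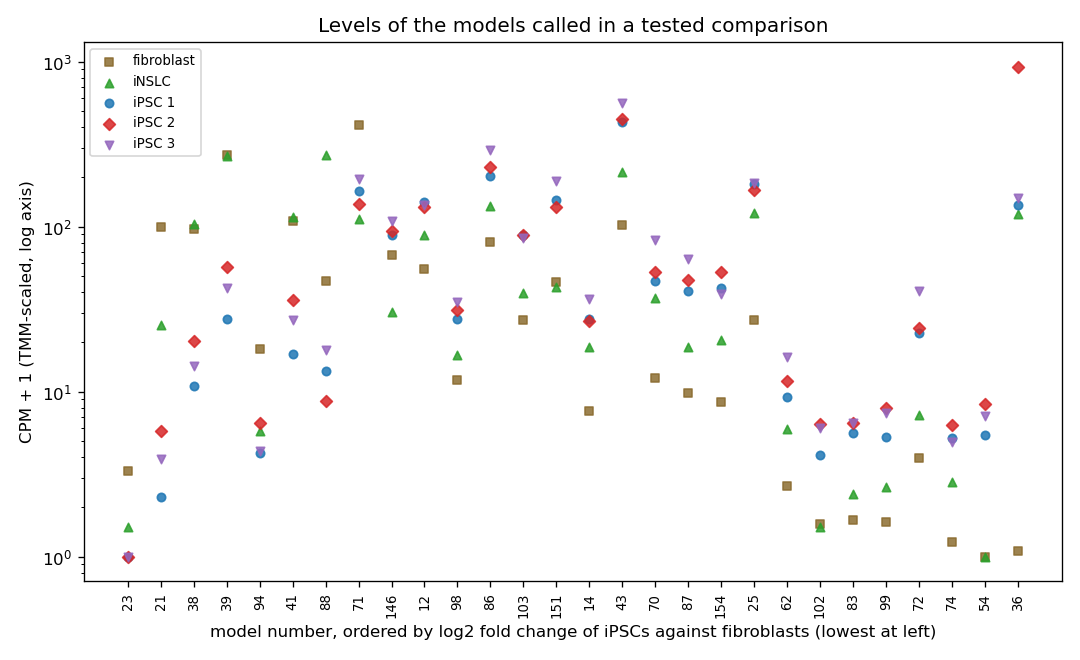
Levels of the 28 models called in either tested comparison, drawn on a log axis after adding 1 to the TMM-scaled CPM. Each point is a library, and models are ordered by their log2 fold change of iPSCs against fibroblasts. In models 38, 39 and 41 the iNSLC points lie with the fibroblasts and above all clones, while model 88 peaks in the iNSLC library at 271 CPM.

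The clones agreed for most of the region but not for a group of neighbouring models near 2.4 Mb. For 69 models with a mean of at least 10 CPM in iPSCs, the coefficient of variation between clones had a median of 19.8%, against 20.7% over all genes at that level. Of 71 models with at least 10 CPM in a clone, iPSC 2 was at least 4-fold above both other clones in 4 (5.63%, background 1.75%) and below them in 0 (background 0.865%). iPSC 1 and iPSC 3 stood above both other clones in 0 models (background 0.0309% and 0.0103%) and below them in 0 (background 0.00% and 0.227%). These models were chosen after their values were seen, and with 1 clone against 2 no test was made.

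Model 36 was one of them, and the other 3 are models 123, 125 and 126. Model 123 (2404098 to 2416898, 11 exon blocks) had 62.8 CPM in iPSC 2, against 12.2 and 13.9 CPM in iPSC 1 and 3. Fibroblasts had 62.4 CPM and iNSLCs 28.5 CPM. Model 125 (2424465 to 2432068, 12 exon blocks) had 41.5 CPM in iPSC 2, against 1.11 and 2.43 CPM in iPSC 1 and 3, with 45.6 CPM in fibroblasts and 22.9 CPM in iNSLCs. In both models iPSC 2 was close to the fibroblast library and above iNSLCs, and the other clones were below both.

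Model 126 (2432579 to 2441456, on the plus strand) had 16.7 CPM in iPSC 2, against 0.247 and 0.513 CPM in iPSC 1 and 3, with 5.66 CPM in fibroblasts and 6.37 CPM in iNSLCs. Model 124 (2419456 to 2422832), which lies between them, had 6.68 CPM in iPSC 2, against 0.124 and 0.162 CPM in iPSC 1 and 3, with 2.23 CPM in fibroblasts and 2.18 CPM in iNSLCs. All 4 neighbours thus had the same order of clones, and their exons do not overlap. None was called between iPSCs and fibroblasts, where their edgeR adjusted p lay between 0.398 and 0.994. Further upstream, models 119 (2221181 to 2227600) and 120 (2244599 to 2250735) had 53 and 30 counts in iPSC 2, against at most 2 counts in any other library. These amount to 2.36 and 1.34 CPM.

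**Figure D4:**
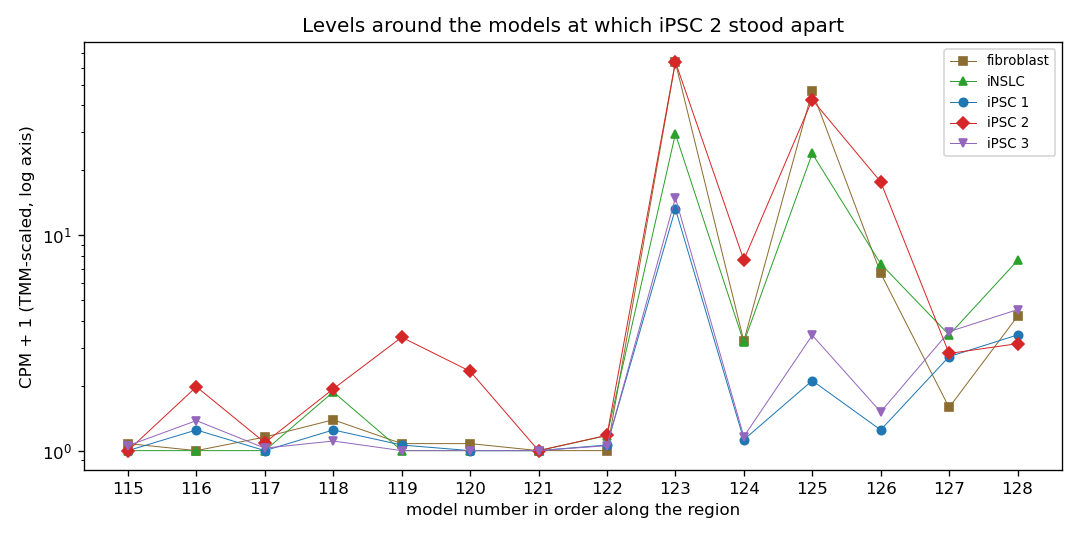
Levels of models 115 to 128 in order along the region, drawn on a log axis after adding 1 to the TMM-scaled CPM, each line being a library. At models 123 to 126 iPSC 2 lies at 62.8, 6.68, 41.5 and 16.7 CPM, above iPSC 1 and iPSC 3, and models 127 and 128 on their right show no such gap.

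Of the remaining models, 92 were tested and not called between iPSCs and fibroblasts and 40 were not tested. Those not tested had at most 10 counts in any library, and 12 of them were shorter than 200 bp of exon. The last model inside, number 159 (2960164 to 2961253), had at most 3 counts in any library. The next model outside, at 2980959 to 3048511, had 3.74, 19.7 and 3.48 CPM in iPSC 1, 2 and 3, against 12.7 CPM in iNSLCs and 95.1 CPM in fibroblasts.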

How the data were processed

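The files deposited by the authors hold unnormalized counts for each gene model. CanFam3.1, featureCounts 1.5.2, STAR 2.5.3a and Trim Galore 0.4.0 are named in the submitters' processing notes. The sources used here give no setting for strand, multi-mapping or read pairs. Single-library tables held the same counts as the series table, with 0 differing values. Even values made up 59.6% to 74.0% of counts from 1 to 10, and counting intervals are too narrow if both mates of a pair were counted. Reads from vectors or mouse feeder cells were not separated.

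Tests used edgeR 4.0.16 in R 4.3.3 (TMM factors 0.770 to 1.12, filterByExpr, quasi-likelihood, Benjamini-Hochberg over 17479 genes) in 1 fit of 3 groups to 5 libraries. With 2 residual degrees of freedom, each lone library takes its spread from the clones, and p-values measure the spread between clones of 1 dog. Standard errors are the log2 fold change divided by the root of F. For iNSLCs against fibroblasts, models with 10 CPM in the higher library and a 4-fold ratio were counted, libraries under 3 counts being set to 3. Named models were, per comparison and direction, up to 10 called models of widest fold with 10 CPM and all clones on 1 side, the 10 highest per kb, and those absent from a group; models 23 and 54 and those near 2.4 Mb were named after their values were seen. Alternatives were DESeq2 1.42.0, limma-voom (limma 3.58.1), other scalings, filters and thresholds, halved counts, and leaving out each clone. The scripts were tested on simulated data with a smaller spread between libraries than the fit found (biological coefficient of variation 42.5%). That check therefore gives no error rates for these data. The region, lists and tests were chosen with earlier results of these data known.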

Additional observations from a re-analysis of the deposited data

How the results depend on the processing

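Against fibroblasts, the number of models called (27) was 6 at an adjusted p under 0.01 and 41 with library size only, and ranged from 16 to 42 when a clone was left out. Against iNSLCs (8) it was 1 at an adjusted p under 0.01 and 15 with DESeq2, and ranged from 0 to 20. The 0 came without iPSC 3, where the edgeR test called no gene at all. The share of all genes called at an adjusted p under 0.01 was not computed. For iNSLCs against fibroblasts, 14 instead of 4 of the 69 models differed at a fold of 2. Among the 10237 genes at this level, 3572 instead of 1396 did. The fibroblast share of the region was 0.674% by TMM-scaled CPM, 0.454% without its top model and 0.542% without mitochondrial models in the total, and that of iNSLCs was 0.724%, 0.626% and 0.727%. The same values were 0.870% and 0.798% in iPSC 1 (without mitochondrial models its share moved by less than the SD of the clones), 0.932%, 0.916% and 1.16% in iPSC 2, and 1.03%, 0.952% and 1.19% in iPSC 3, and the order of the stages was kept throughout.

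Of 418 recomputed fold changes of named models, 381 kept direction and side of the threshold, 23 lost the call, 8 gained it and 6 changed sign. Those were uncalled models near 0: model 145 against fibroblasts without iPSC 3 (-0.065, up to 0.31 when another clone was left out), model 61 against iNSLCs with DESeq2 (-0.014), with its size factors in edgeR (-0.014), with at least 10 CPM (-0.0079) and without iPSC 3 (-0.13, up to 0.11 when another clone was left out), and model 142 with library size only (0.0041). The cause was not tested. Library size as the only scaling moved the all-gene median against fibroblasts to a log2 value of 0.78, in place of 0.27. Halved counts and no filter changed no call of the 27 and 8 models. No paired analysis was possible because the fibroblast and iNSLC groups had 1 library each. The labels of the iNSLC library and iPSC 1 share the number 1, and do not say whether that clone came from that colony.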
